A study of Mus musculus with 8 samples.

Results

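The genes described here handle iron and haem in the macrophages of the splenic red pulp. They are Spic, Cd163, Marco, Hmox1, Slc40a1, Slc11a1, Hfe, Fth1 and Ftl1. Members were taken as every probe set whose only gene symbol in the platform annotation was 1 of these 9 names. That gave 13 probe sets for 8 genes, of 34945 probe sets with 1 symbol and 18193 genes in the series. Ftl1, the ferritin light chain, had 0 such probe sets and 3 shared with other symbols, so no value is given for it. RNA labelled as mouse spleen or mouse lymph node, each wild-type or knockout for Aire, had been hybridised to 8 Affymetrix expression arrays. There were 2 arrays, lettered A and B, in each of the 4 groups. Aire, the autoimmune regulator, is the gene that controls display of tissue antigens in the thymus, and the series concerned cells outside the thymus that express it. The labels give no strain, age, sex, treatment, cell type or sorting step for any group, and they name no other allele. They do not describe the Aire mutation. Nothing in them says that arrays A and B came from separate animals, so a p-value here covers only the variation among these arrays, technical variation included.

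Red pulp macrophages engulf old red cells, break down their haem and return the iron to the blood. SPI-C is a transcription factor of the ETS family that these macrophages need, and haem raises its expression. CD163 takes up haemoglobin bound to haptoglobin, haem oxygenase (Hmox1) opens the haem ring and frees iron, ferritin (Fth1, Ftl1) stores it, and ferroportin (Slc40a1) exports it. NRAMP1 (Slc11a1) moves metal ions out of the phagosome, HFE takes part in iron sensing upstream of hepcidin, and MARCO is a scavenger receptor of marginal zone macrophages.

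The targeted transcript was lower on every knockout array but was not at the background. Its scaled signal was 5037 and 5204 on wild-type spleen arrays A and B, 1009 and 2376 on knockout spleen arrays A and B, 3052 and 3535 on wild-type lymph node arrays, and 791 and 1137 on knockout lymph node arrays. The averaged log2 difference for Aire was -1.76 ± 0.33 (SE; limma adjusted p = 0.237). The sources used here do not state where its probes lie against the deleted part. Scaled signal here means the deposited signal after each array was brought to the same median; values under 9.58 were set to that floor before logs were taken. Replicate arrays correlated least in knockout spleen (r = 0.854 across tested genes) and at 0.912 to 0.920 in the other groups. Knockout spleen array A also stood apart by its neutrophil genes, whose summed signal over 8 measured genes was 9599 there and 107 to 500 on the 7 other arrays (S100a8 2954 against 3.0 to 94.5). Array A of each wild-type group carried little Y-linked signal, with Eif2s3y at 21.2 in spleen and 3.8 in lymph node, whereas the other arrays held 521 to 1988. Xist was at 14.6 and 23.1 on the knockout B arrays and at 3565 to 7624 on the 6 others. Markers of spleen stroma (Tlx1, Nkx2-5, Nkx3-2, Wt1) passed the filter in 0 of 4 cases, with no signal over 36.2. Genes of mature dendritic cells were bright everywhere, with Ccr7 at 8241 to 14752 and Fscn1 at 9491 to 12476. Levels of the dendritic cell list by genotype are given beside Hfe. Its summed signal over 8 measured genes was 26553 to 40992 on the arrays. The sum was 148 to 1616 for 4 measured B cell genes and 451 to 2027 for 5 measured T cell genes. Both lymphocyte sums were below the dendritic cell sum on every array. The tissue differences below are those of the RNA sampled and should not be read as those of whole organs. The cell make-up of the samples was not tested. All samples are RNA of many cells, so fewer cells of a type and less RNA per cell cannot be told apart.

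None of the 8 measured members passed the threshold of a limma adjusted p under 0.05 in any comparison. Spic and Hfe were lower in knockout samples. Hfe was 2.66-fold lower on average and lay lower on all 4 knockout arrays than on all 4 wild-type arrays, as in 2.22% of all genes tested. Hmox1, Cd163 and Slc11a1 were higher in both knockout lymph node arrays than in both wild-type ones, as in 14.6% of all genes. In knockout spleen their excess was carried by array A, which also held the highest ferroportin signal. Ferroportin was the member with every spleen array above every lymph node array, as in 3.82% of all genes. The ferritin heavy chain held nearly the same signal throughout on the probe set used for it.

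**Figure D1:**
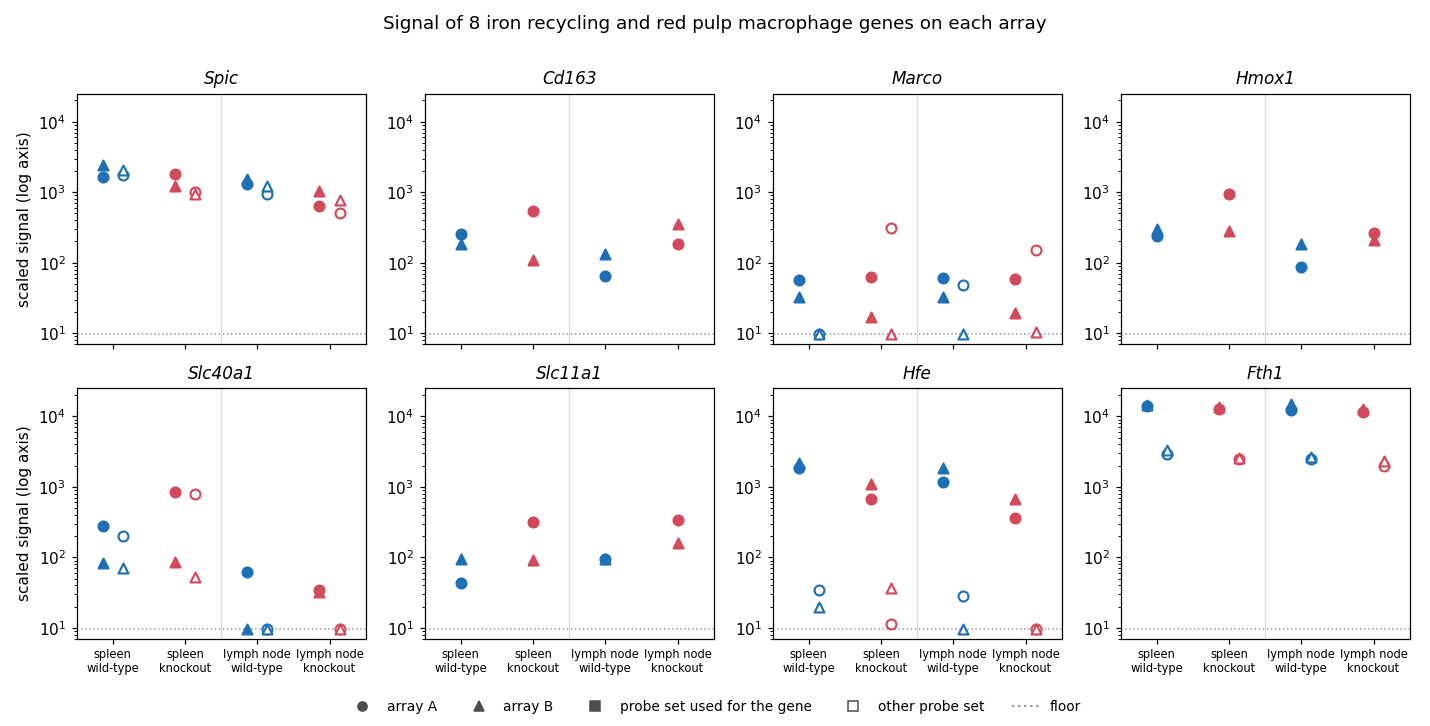
Scaled signal (log axis) of the 8 measured members on each of the 8 arrays, by tissue and genotype; circles are arrays A, triangles arrays B, filled symbols the probe set used for the gene and open symbols its other probe set, with values under the floor of 9.58 (dotted line) drawn at it. Hfe lies lower on all 4 knockout arrays (362 to 1086) than on all 4 wild-type arrays (1181 to 2179), as in 2.22% of all genes tested. Knockout spleen array A holds the highest signal of Hmox1, Cd163 and Slc40a1.

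Spic, the transcription factor, was measured by 2 probe sets. With 1449134_s_at the scaled signal was 1624 and 2443 in wild-type spleen, 1794 and 1238 in knockout spleen, 1314 and 1544 in wild-type lymph node, and 634 and 1048 in knockout lymph node, in the order A, B. The groups overlapped in spleen and did not overlap in lymph node, where both knockout arrays were below both wild-type arrays. By group mean wild-type spleen came first (2034 ± 580, SD, n = 2), then the knockout spleen arrays (1516 ± 393), then wild-type lymph node (1429 ± 162), with the knockout lymph node arrays last (841 ± 293). The first and the second of these, and the second and the third, overlapped. The knockout minus wild-type difference of Spic was -0.42 ± 0.41 on the log2 scale in spleen (SE; limma adjusted p = 0.824), -0.81 ± 0.41 in lymph node (adjusted p = 1) and -0.61 ± 0.29 averaged over tissues (adjusted p = 0.667). The other probe set, 1418555_x_at, read 1758 and 2073 in wild-type spleen and 1019 and 929 in knockout spleen. For lymph node it gave 950 and 1231 with wild-type, then 499 and 782 with knockout samples. Here Spic was lower in knockout without overlap in both tissues, as were 5.68% of the 11557 genes tested, each by 1 probe set. Its differences were -0.97 ± 0.37 in spleen and -0.79 ± 0.37 in lymph node. The averaged difference of -0.88 ± 0.26 had a limma adjusted p of 0.52 over 21805 probe sets tested. Leaving out knockout spleen array A moved the spleen value of the first probe set to -0.69, and the direction was kept with every array left out in turn (-0.71 to -0.12 in spleen, -1.17 to -0.44 in lymph node).

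The regions just upstream of 3 members are shown because these members had different patterns: Hfe and Spic were lower in knockout, and 1 probe set of Marco had its highest signals on the knockout A arrays. RefSeq promoter sequences of mouse build GRCm38.p6 were found for 7 of the 9 members (none for Hmox1 and Slc40a1), and 2 sets of letters were searched on both strands in the 250 bases before each start. The letters GAGGAA, a core bound by PU.1 and its ETS relatives such as SPI-C, occurred in 23.3% of 32851 mouse promoters of the same length, and TGACNNNGC, the core of the antioxidant response element through which NRF2 and BACH1 act, in 10.2%. GAGGAA was found for Slc11a1 at -152 to -147 and for Marco at -146 to -141 from the start, and TGACNNNGC for Hfe at -67 to -59. Neither was found in these windows of Spic, Cd163, Ftl1 or Fth1. For Slc11a1, Cd163 and an entry of Fth1 the start used was not the gene's outermost annotated start. For Hfe, Spic and Marco, printed below, it was. A match is a description of the letters only. The 160 bases before the start are printed 5′ to 3′ on the gene's strand, all 3 from the minus strand, with the matches in capitals. They are chr13:23710855-23711014 for Hfe, chr10:88683024-88683183 for Spic and chr1:120505025-120505184 for Marco.
Hfe: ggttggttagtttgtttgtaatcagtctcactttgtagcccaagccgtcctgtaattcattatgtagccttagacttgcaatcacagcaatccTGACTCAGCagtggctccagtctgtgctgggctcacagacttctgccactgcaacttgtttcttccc
Spic: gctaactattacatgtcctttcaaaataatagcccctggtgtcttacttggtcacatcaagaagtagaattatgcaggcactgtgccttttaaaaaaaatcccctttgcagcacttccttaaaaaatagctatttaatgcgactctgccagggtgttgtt
Marco: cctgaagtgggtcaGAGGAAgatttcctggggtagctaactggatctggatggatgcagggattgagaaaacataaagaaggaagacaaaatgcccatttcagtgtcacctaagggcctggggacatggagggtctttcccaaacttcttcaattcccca

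Cd163, the receptor for haemoglobin bound to haptoglobin, had a scaled signal of 253 and 183 in wild-type spleen, 544 and 108 in knockout spleen, 65.0 and 131 in wild-type lymph node, and 187 and 356 in knockout lymph node. In spleen 1 knockout array was above and the other below both wild-type arrays. Both knockout lymph node arrays exceeded both wild-type ones, as in 14.6% of all genes tested. The difference was 0.17 ± 0.79 in spleen (adjusted p = 0.972) and 1.48 ± 0.79 in lymph node (adjusted p = 1). Without knockout spleen array A the spleen value of Cd163 turned to -0.99, and without wild-type spleen array B to -0.06. The difference between the 2 tissues' effects, -1.31 ± 1.11 (spleen minus lymph node), did not pass either (adjusted p = 0.999).

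Marco, the scavenger receptor, gave different pictures with its 2 probe sets. The probe set with the higher mean log2 value, 1458297_s_at, read 56.3 and 32.3 in wild-type spleen, 62.4 and 17.0 in knockout spleen, 60.9 and 32.8 in wild-type lymph node, and 58.6 and 19.4 in knockout lymph node. On it array A exceeded array B in every group, and knockout and wild-type arrays overlapped in both tissues (-0.39 ± 0.78 in spleen, -0.41 ± 0.78 in lymph node). The other, 1449498_at, read 7.7 and 7.7 in wild-type spleen, 314 and 5.6 in knockout spleen, 47.7 and 3.2 in wild-type lymph node, and 153 and 10.3 in knockout lymph node, so that 4 of 8 arrays were at the floor and the 2 arrays above the filter level were knockout arrays. Its differences for Marco were 2.52 ± 1.82 in spleen (adjusted p = 0.78) and 0.89 ± 1.82 in lymph node (adjusted p = 1). The direction for Marco thus turned with the probe set chosen, and the signal of 1449498_at sat on the arrays lettered A in 3 of the 4 groups.

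Hmox1, the inducible haem oxygenase, read 237 and 300 in wild-type spleen, 929 and 283 in knockout spleen, 87.7 and 184 in wild-type lymph node, and 262 and 209 in knockout lymph node. Knockout spleen array A was far above every other array, and its replicate lay between the 2 wild-type spleen arrays. The lymph node groups did not overlap, with knockout higher, as in 14.6% of all genes tested. The difference was 0.94 ± 0.62 in spleen (adjusted p = 0.741), 0.88 ± 0.62 in lymph node (adjusted p = 1) and 0.91 ± 0.44 averaged (1.88-fold; 95% interval -0.13 to 1.95; adjusted p = 0.67). Leaving out that array gave 0.08 for spleen and 0.48 for the average. With quantile normalization or with no scaling the spleen groups of Hmox1 did not overlap.

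Slc40a1, ferroportin, the iron exporter, was again measured by 2 probe sets. With 1417061_at its signal was 277 and 82.3 in wild-type spleen, 835 and 86.8 in knockout spleen, 61.7 and 4.0 in wild-type lymph node, and 34.9 and 32.1 in knockout lymph node. The probe set 1448566_at read 200 and 70.2 in wild-type spleen and 804 and 53.3 in knockout spleen, and all 4 lymph node arrays were under the floor, at 1.8 to 3.3. Both probe sets put array A above array B in each spleen group. Both also put every spleen array above every lymph node array, as in 3.82% of all genes tested, each by 1 probe set. The knockout difference of Slc40a1 was 0.83 ± 1.26 in spleen (adjusted p = 0.895) and 0.46 ± 1.26 in lymph node (adjusted p = 1). It became -0.80 in spleen without knockout array A and -0.88 in lymph node without wild-type array B, so neither tissue gave a direction that held with each array left out.

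Slc11a1, the phagosomal metal transporter, read 43.8 and 95.4 in wild-type spleen, 319 and 92.2 in knockout spleen, 94.1 and 94.8 in wild-type lymph node, and 339 and 160 in knockout lymph node. All wild-type arrays were at or below 95.4 and 3 of the 4 knockout arrays were at 160 or more; knockout spleen array B lay between the wild-type spleen arrays. Its difference was 1.41 ± 0.70 in spleen (adjusted p = 0.639), 1.30 ± 0.70 in lymph node (adjusted p = 1) and 1.35 ± 0.49 averaged (2.56-fold; 95% interval 0.19 to 2.52; unadjusted p = 0.0285, adjusted p = 0.552). Dropping knockout spleen array A left 0.91 for the average of Slc11a1 and 0.51 for spleen. No array left out turned its direction in either tissue.

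Hfe, the iron sensing protein related to class I histocompatibility molecules, read 1828 and 2179 in wild-type spleen, 662 and 1086 in knockout spleen, 1181 and 1851 in wild-type lymph node, and 362 and 665 in knockout lymph node. All 4 knockout arrays were below all 4 wild-type arrays, as in 2.22% of all genes tested. That separation also held under each of the 3 scalings tried. Ordered by group mean, Hfe was highest in wild-type spleen (2003 ± 248, SD, n = 2), then in the wild-type lymph node arrays (1516 ± 473), in knockout spleen (874 ± 300) and in knockout lymph node (513 ± 214). The tissues overlapped within wild-type and, barely, within knockout. The difference was -1.24 ± 0.45 in spleen (adjusted p = 0.555), -1.59 ± 0.45 in lymph node (adjusted p = 1) and -1.41 ± 0.32 averaged (95% interval -2.17 to -0.66; unadjusted p = 0.00315, adjusted p = 0.351). Without knockout spleen array A the averaged value of Hfe was -1.24 (adjusted p = 0.401), and over the single arrays left out it ran from -1.63 to -1.19. The 2 tissues' effects differed by 0.36 ± 0.64 (adjusted p = 0.999). Dendritic cell genes lay lower on some of the same arrays. Their summed signal over 8 measured genes was 35616 and 37139 in wild-type spleen, 27235 and 33099 in knockout spleen, 32288 and 40992 in wild-type lymph node, and 26553 and 32357 in knockout lymph node. Cd83 was lower on all 4 knockout arrays than on all 4 wild-type arrays (-0.38 ± 0.22, limma adjusted p = 0.709), as in 2.22% of all genes. Ccr7 was lower without overlap within each tissue (-0.43 ± 0.24, adjusted p = 0.696), as in 5.68% of all genes. In knockout lymph node 6 of 6 tested genes of the list were lower, beside 53.2% of all genes. In knockout spleen 4 of 6 were, beside 57.4%. Averaged over tissues 4 were lower and 2 higher, Itgax (0.40 ± 0.35) and Flt3 (0.03 ± 0.30). Itgax was higher without overlap in knockout spleen (282 and 212 against 124 and 77.2), as in 13.3% of all genes. The part of dendritic cells in the Hfe and Spic signals was not tested. A second Hfe probe set, 1450702_at, did not pass the filter, with signals of 3.8 to 36.4 and 3 arrays at the floor.

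Fth1, the ferritin heavy chain, read 13910 and 14669 in wild-type spleen, 12547 and 13546 in knockout spleen, 12247 and 14970 in wild-type lymph node, and 11404 and 12566 in knockout lymph node. Its difference was -0.13 ± 0.30 in spleen (adjusted p = 0.931) and -0.18 ± 0.30 in lymph node (adjusted p = 1), with a 95% interval of -0.65 to 0.34 for the average. Both knockout spleen arrays lay below both wild-type ones after median scaling; with no scaling they overlapped there and separated in lymph node instead. The other probe set of Fth1, 1427021_s_at, gave -0.28 ± 0.22 averaged. It read 2924 and 3304 in wild-type spleen and 2502 and 2536 in knockout spleen. In lymph node it read 2483 and 2675 with wild-type, then 2006 and 2289 with knockout samples. On it knockout was lower without overlap in both tissues, as in 5.68% of all genes tested.

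The comparison of knockout with wild-type asks what differs between arrays of these genotypes. Sex-linked genes differed between them too, with low Eif2s3y on wild-type arrays A only and low Xist on knockout arrays B only. Differences of genotype and of sex make-up thus cannot be fully told apart. Among 11557 genes tested, limma called 0 in spleen (0%), 0 in lymph node (0%) and 0 for the average (0%), with 973, 391 and 924 genes at an unadjusted p under 0.05; with a trended robust prior the calls were 1, 0 and 6. The difference of the effect between tissues gave 0 calls as well (0%), with 395 genes at an unadjusted p under 0.05. For the average, 4 members were higher (Hmox1, Slc40a1, Cd163, Slc11a1) and 4 lower (Spic, Marco, Hfe, Fth1), with a median of 0.25 beside -0.06 over all genes tested, of which 43.3% were higher. When knockout spleen array A was dropped, 3 members were higher and 5 lower, with a median of -0.15 beside -0.11 over all genes. The median of all genes in spleen moved from -0.09 with median scaling to 0.015 without scaling. In spleen 2 members had both knockout arrays lower than both wild-type arrays (Hfe and Fth1), where 23.9% of all genes tested did, and 0 had them higher, where 13.3% did (Hmox1 and Slc11a1 had with quantile normalization or with no scaling, and Fth1 did not separate with no scaling). In lymph node 2 were lower without overlap (Spic and Hfe; 16.2% of all genes) and 3 higher (Hmox1, Cd163 and Slc11a1; 14.6% of all genes). Hfe was the member with all 4 knockout arrays below all 4 wild-type arrays, as in 2.22% of all genes; 0 members had them all above, as in 1.44%. With 2 arrays in each group, separation within a tissue was common over the whole table.

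**Figure D2:**
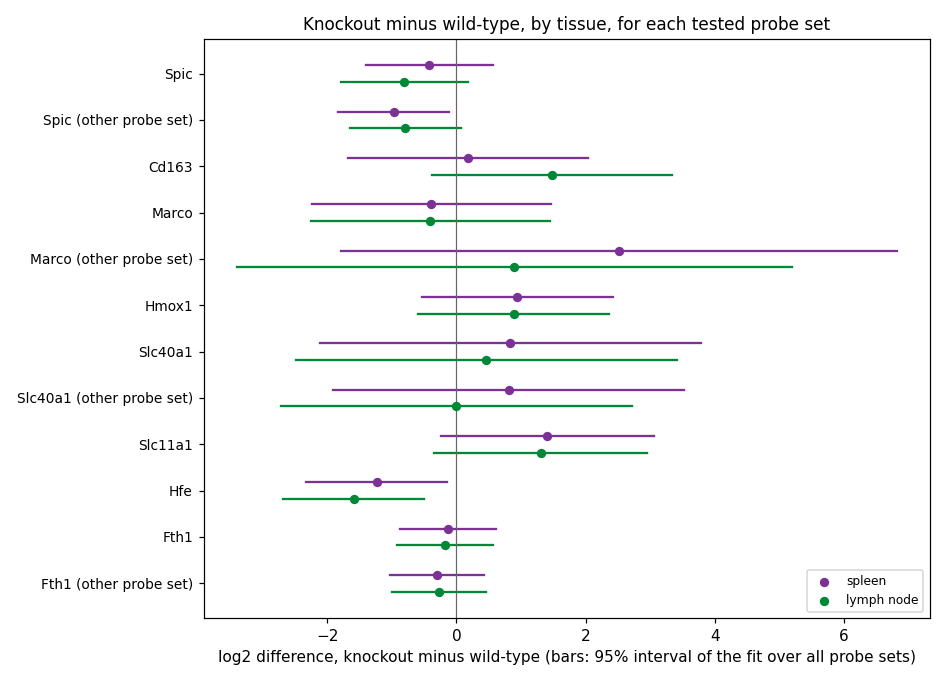
Log2 difference, knockout minus wild-type, for each tested probe set of the members in spleen (purple) and lymph node (green), with 95% intervals of the limma fit over all probe sets. Hfe lies left of 0 in both tissues (spleen -1.24, lymph node -1.59), and the widest intervals are those of the other Marco probe set and of both Slc40a1 probe sets.

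Spleen against lymph node asks how the tissues differ, and ferroportin had the largest difference among the 8 members. Slc40a1 was 7.07-fold higher in spleen, 2.82 ± 0.89 on the log2 scale (95% interval 0.71 to 4.93; unadjusted p = 0.0158, limma adjusted p = 0.354), with 2.63 ± 1.26 within wild-type and 3.01 ± 1.26 within knockout. With 1448566_at, floored on all 4 lymph node arrays, the Slc40a1 group means were at least 16.3-fold apart when lymph node is taken at the floor (4.03 ± 0.82; 95% interval 2.11 to 5.95; adjusted p = 0.263). That probe set passed the filter through spleen arrays alone, 3 of 4, so its tissue difference was favoured by the filter. Leaving out each array in turn gave 2.0 to 3.64, the lowest without knockout spleen array A. It was the 1 member with all 4 spleen arrays above all 4 lymph node arrays, as in 3.82% of all genes; 0 members had them all below, as in 1.9%. Hmox1 followed with 1.10 ± 0.44 (unadjusted p = 0.041, adjusted p = 0.446; 0.67 without knockout spleen array A). Spic was at 0.68 ± 0.29 (adjusted p = 0.469), Hfe at 0.61 ± 0.32, Cd163 at 0.57 ± 0.56 and Fth1 at 0.10 ± 0.21, while Slc11a1 was at -0.49 ± 0.49 and Marco at -0.06 ± 0.56. In all, 6 members were higher and 2 lower in spleen, with a median of 0.59 beside 0.06 over all genes, of which 55.7% were higher. Over all genes limma called 0 for the averaged tissue difference (0%; 1242 at an unadjusted p under 0.05, and 48 called with a trended robust prior). Within wild-type it called 1 gene (0.00865%), Tceal1, which is no member.

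Red cell genes lay higher on 3 of the 4 spleen arrays. Of 17 listed erythroid genes 11 were measured and 7 tested. Of the 7, 6 were higher in spleen, beside 55.7% of all genes, with a median of 2.39, and 0 passed. Klf1, Gata1, Ermap and Rhd passed the filter through spleen arrays alone, so the filter favours a higher spleen value for them. The summed signal of the 11 measured genes was 3147 and 277 in wild-type spleen and 3051 and 1845 in knockout spleen. It was 239 to 326 on the 4 lymph node arrays, so that wild-type spleen array B lay within the lymph node range. Slc4a1, the band 3 anion exchanger of the red cell membrane, read 2159, 41.6, 1852 and 1307 on those spleen arrays and 9.6 to 61.4 in lymph node. Wild-type spleen array B held more Slc40a1 (82.3 and 70.2 with the 2 probe sets) than every lymph node array. Within each spleen genotype array A was above array B in both Slc40a1 signal and erythroid sum. The lowest spleen signal of Slc40a1 was on wild-type array B with 1417061_at and on knockout array B (53.3) with 1448566_at, where the erythroid sum was 1845. Hba-a1, a globin gene, was at 19.4 or less on all 8 arrays. The part of red cell precursors in the ferroportin signal was not tested.

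**Figure D3:**
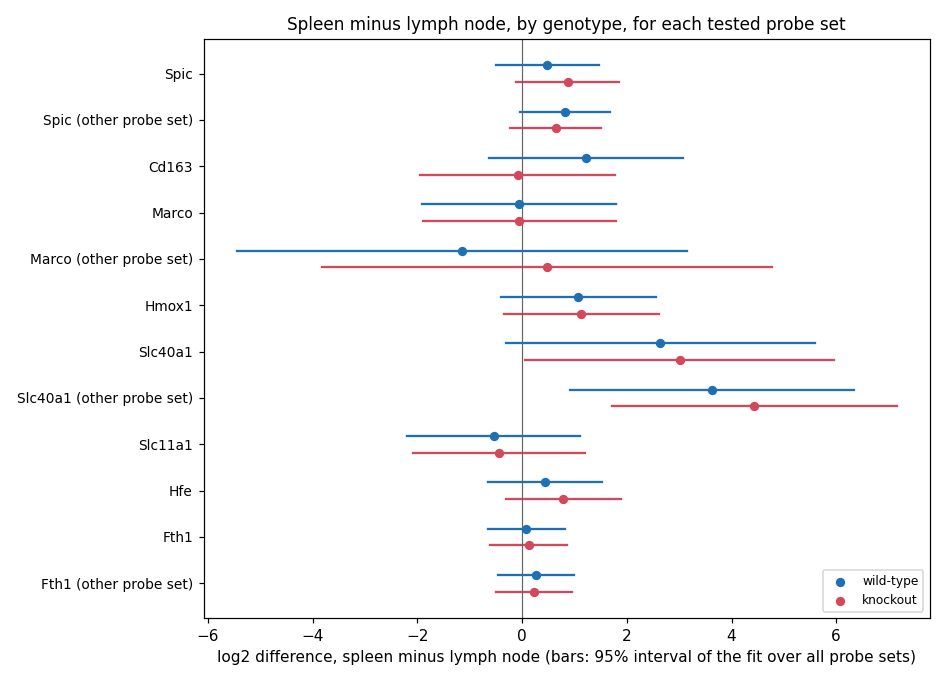
Log2 difference, spleen minus lymph node, for each tested probe set of the members within wild-type (blue) and within knockout (red), with 95% intervals of the limma fit over all probe sets. Both probe sets of Slc40a1 lie furthest to the right, at 2.63 and 3.01 for the first.

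The other genes of iron and haem handling showed no common direction. Of 46 such genes outside the members, 45 were measured and 33 tested; 15 were higher and 18 lower in knockout averaged over tissues, with a median of -0.10 beside -0.06 over all genes, and 0 passed. Without knockout spleen array A the split was 16 to 17, with a median of -0.04 beside -0.11. Against lymph node, 23 were higher and 10 lower in spleen, with a median of 0.22 beside 0.06; without that array, 19 and 14, with a median of 0.04 beside 0.01.

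Among genes for uptake of haemoglobin and haem, 2 of 3 tested were higher in knockout, beside 43.3% of all genes. Lrp1, the receptor for haem bound to haemopexin, read 22.7 and 37.3 in wild-type spleen, 136 and 44.4 in knockout spleen, 35.5 and 28.6 in wild-type lymph node, and 59.5 and 49.6 in knockout lymph node. All 4 knockout arrays of Lrp1 were above all 4 wild-type arrays, as in 1.44% of all genes. Its averaged difference was 1.10 ± 0.40 (limma adjusted p = 0.552). Lrp1 was above the filter level on 2 knockout arrays and 0 wild-type arrays, so the filter favours that direction. Slc48a1, which carries haem out of the phagolysosome, was at -0.24 ± 0.33. In the group for haem breakdown and export, 3 of 4 were higher: Blvrb (0.74 ± 0.39) and Blvra (0.53 ± 0.37), the reductases that turn biliverdin into bilirubin, and Hmox2 (0.31 ± 0.41), the constitutive haem oxygenase. Flvcr1, a haem exporter, was at -0.19 ± 0.22. None of these passed.

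Import genes split, 4 of 6 higher. Tfrc, the transferrin receptor, read 398 and 318 in wild-type spleen, 1182 and 300 in knockout spleen, and 260 to 606 in lymph node, another gene whose top signal was on knockout spleen array A (0.51 ± 0.50 averaged). Steap3, the endosomal ferrireductase, was at 57.4 and 63.3 in wild-type lymph node against 9.8 and 7.0 in knockout lymph node, with a difference of -2.63 ± 0.68 (unadjusted p = 0.00631, adjusted p = 1), and at 0.83 ± 0.68 in spleen. Ceruloplasmin (Cp), the ferroxidase that works with ferroportin, was at 1.04 ± 0.54. For storage and delivery the values were small, as for Fth1. Ncoa4, which brings ferritin to the lysosome, was at -0.18 ± 0.21, and the iron chaperones Pcbp1 and Pcbp2 at 0.09 ± 0.21 and -0.08 ± 0.26.

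Of 6 tested iron sensing genes, with Hfe not counted, 4 were lower, beside 56.7% of all genes tested, a share near theirs. Tmprss6, the protease that restrains hepcidin signalling, was at -1.42 ± 0.53 (adjusted p = 0.575), with 88.5 and 65.4 in wild-type spleen against 23.8 and 8.2 in knockout spleen; it passed the filter through wild-type arrays alone. Aco1, which as an iron regulatory protein binds ferritin and transferrin receptor messages, read 1564 and 1428 in wild-type spleen, 889 and 1140 in knockout spleen, and 691 to 947 in lymph node (-0.38 ± 0.22). Among 10 genes of the haem and oxidant response, which NRF2 (Nfe2l2) drives and BACH1 represses together with Hmox1, 8 were lower and 2 higher, with a median of -0.17 beside -0.06 over all genes. Nqo1 was at -1.20 ± 0.38 (unadjusted p = 0.0158, adjusted p = 0.494), its 2 knockout lymph node arrays at 16.1 and 32.1 against 124 and 48.5 in wild-type. Nfe2l2 was at -0.56 ± 0.27, Srxn1 at -0.66 ± 0.37 and Bach1 at -0.32 ± 0.26, while Hmox1 was at 0.91 ± 0.44. In this list Gclm and Mafg had all 4 spleen arrays above all 4 lymph node arrays, as in 3.82% of all genes. Gclm, a subunit of the enzyme that starts glutathione synthesis, was at 0.83 ± 0.24, spleen minus lymph node (limma adjusted p = 0.331). Mafg, a partner of NRF2 and BACH1, was at 0.84 ± 0.27 (limma adjusted p = 0.364).

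**Figure D4:**
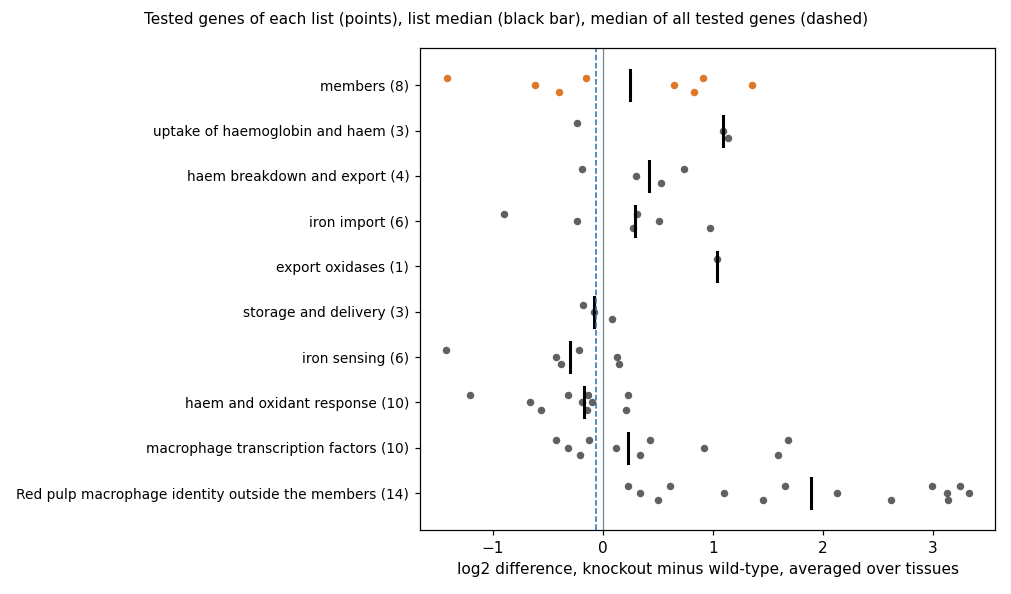
Log2 difference, knockout minus wild-type averaged over tissues, for the tested genes of each list (points), with the list's median as a black bar and the median of all 11557 genes as a dashed line; the number of tested genes is in parentheses. The members (orange) lie from -1.41 (Hfe) to 1.35 (Slc11a1), and the 14 macrophage identity genes all lie right of 0.

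For macrophage genes outside the members the fitted values were positive without any passing the test. All 14 measured of 16 listed red pulp macrophage identity genes had a higher knockout mean averaged over tissues, with a median of 1.89 beside -0.06 over all genes, and 0 passed; 14 of 14 were higher in spleen and 13 of 14 in lymph node. That direction was known when the list was chosen, so the count is no independent evidence. Their summed signal was 5838 and 3639 in wild-type spleen, 29547 and 5144 in knockout spleen, 11188 and 4028 in wild-type lymph node, and 24018 and 9878 in knockout lymph node, in the order A, B. In every group array A was above array B, and knockout and wild-type sums overlapped in both tissues. Of the 14, 3 (Siglec1, Adgre1 and Cd5l) passed the filter through knockout arrays alone, which favours a higher knockout value. Siglec1, the sialoadhesin of marginal metallophilic and lymph node macrophages, read 10.4 and 27.4 in wild-type spleen, 146 and 70.5 in knockout spleen, 15.7 and 2.3 in wild-type lymph node, and 268 and 159 in knockout lymph node (3.33 ± 0.43; adjusted p = 0.148). Cd5l, made by red pulp and other tissue macrophages, reached 753 on knockout spleen array A and was at 1.2 to 13.3 on the wild-type arrays. Without knockout spleen array A 12 of 14 were higher on average, with a median of 1.43, and without both knockout arrays A 10 of 14, with a median of 1.12. Of 10 tested macrophage transcription factors 6 were higher and 4 lower, where 43.3% of all genes were higher. The split turned to 4 higher and 6 lower without knockout spleen array A, with a median of -0.10 beside -0.11 over all genes. Without both knockout arrays A it was 3 higher and 7 lower. Runx1 was at 1.68 ± 0.47 (limma adjusted p = 0.424). It read 14.7 and 7.4 in wild-type spleen, 204 and 63.4 in knockout spleen, and 158 to 406 in lymph node. Nr1h3 (LXR alpha), needed for splenic marginal zone macrophages, was at 1.59 ± 0.62. Its signal was 299 and 174 on the knockout A arrays and 18.5 to 65.3 on all others. Spi1 (PU.1), a relative of Spic, was at -0.31 ± 0.21, and Spib, a further relative, at -0.20 ± 0.20.

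Set beside that sum, Spic (1449134_s_at) was low on 1 array with a high macrophage sum and high on another. Knockout lymph node array A, with the second highest macrophage sum, held the lowest Spic signal (634). Knockout spleen array A, with the highest sum, held 1794, exceeded only on wild-type spleen array B. That wild-type array, with the lowest sum, held 2443. Hfe likewise had its lowest signal (362) on knockout lymph node array A and its highest (2179) on wild-type spleen array B. Slc11a1 was highest on the 2 knockout A arrays (319 and 339), which also held the 2 highest macrophage sums. Slc40a1 was highest on knockout spleen array A (835) but at 34.9 on knockout lymph node array A. Over the 8 arrays the Pearson correlation of log2 signals was 0.80 between Spic and Hfe (Spearman 0.62), 0.90 between Hfe and Fth1 (0.83), 0.11 between Spic and Cd163 (0.14), 0.78 between Hmox1 and Cd163 (0.45) and -0.85 between Slc11a1 and Hfe (-0.60). These describe 8 points that share 4 groups. The part of the number of macrophages or neutrophils in the members' signals was not tested.

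**Figure D5:**
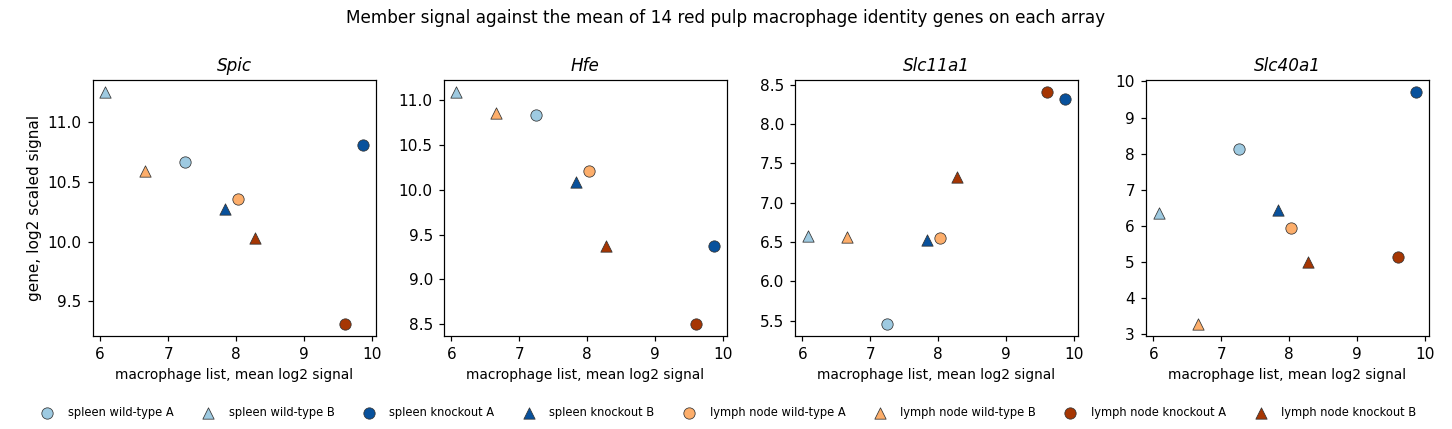
Log2 scaled signal of Spic, Hfe, Slc11a1 and Slc40a1 (vertical) against the mean log2 signal of 14 red pulp macrophage identity genes (horizontal) on the 8 arrays; circles are arrays A, triangles arrays B, colours the 4 groups. Slc11a1 is highest on the 2 arrays furthest right, while Hfe is highest on the array furthest left.

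The 5 tested genes whose log2 signals were most like those of Spic over the 8 arrays were Rnf43 (Pearson r = 0.98), Tmem209 (0.98), Mplkip (0.98), Lrp11 (0.96) and 4833428L15Rik (0.95). Lrp11, for example, was at 77.4 and 108 in wild-type spleen and at 16.2 on knockout lymph node array A, where Spic was lowest as well. For Cd163 they were Blvra (0.95), the biliverdin reductase named above, Dcun1d2 (0.94), Cpd (0.94), Sae1 (0.94) and Rfc5 (0.92). Blvra ran from 199 on wild-type lymph node array A to 623 on knockout spleen array A, the same arrays on which Cd163 was lowest and highest. With 11557 genes and 8 arrays such values are a description of these arrays.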

How the data were processed

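RNA of 8 samples was measured on Affymetrix arrays. The deposited values are intensity signals on a linear scale, 1 per probe set, made by the authors with MAS5 per the submitters' processing notes, whose version and settings the sources do not state. Of 45037 probe sets without controls, 34945 had 1 gene symbol, 932 several and 9160 none. Because array medians ranged over 0.28 on the log2 scale (tolerance 0.2), arrays were brought to a common median, floored at the 20th percentile (9.58) and taken to log2. A gene was the probe set with the highest mean log2 value; 11557 genes above 59.0 on at least 2 arrays were tested. In R 4.3.3, limma 3.58.1 fitted a mean per group over 8 arrays (lmFit, eBayes; 4 residual and 2.96 prior degrees of freedom). Benjamini-Hochberg adjustment ran over all genes, with calls at 0.05. The fit was tested on simulated data. Probe sets were also fitted singly.

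Members and lists were chosen with earlier results of these data known. Named genes were all members and, from each list, up to 4 with the smallest unadjusted p for the averaged knockout effect and up to 2 more for the tissue difference, of which some are described; Tceal1, S100a8, Hba-a1 and the stroma genes were named for checks. The number of arrays limits the precision.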

Additional observations from a re-analysis of the deposited data

How the results depend on the processing

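Of the member values under alternative settings, 640 kept their direction and their side of the threshold and 36 turned; no member passed under any of them. The values that turned were those of Slc40a1, Cd163 and Marco, and beyond the arrays left out their cause was not tested. With 1 array left out in turn, Slc40a1 ran from -0.80 to 2.47 in spleen, -0.88 to 1.80 in lymph node and -0.17 to 1.46 averaged. Cd163 ran from -0.99 to 1.34 in spleen and, spleen minus lymph node, from -0.016 to 1.15. Marco ran from -1.33 to 0.55 in spleen, -1.20 to 0.39 in lymph node, -0.87 to 0.072 averaged and -0.53 to 0.41 between tissues. Leaving out both knockout arrays A, a setting chosen after seeing the data, gave Slc40a1 -0.80 in spleen and -0.20 averaged, and Cd163 -0.99 in spleen and -0.25 between tissues. With the floor at the 40th percentile Slc40a1 was -0.41 in lymph node, and Marco was 1.58 in spleen, 0.84 in lymph node, 1.21 averaged and 0.15 between tissues. Averaging the probe sets of each gene gave Marco 1.06, 0.24 and 0.65 in spleen, lymph node and averaged; a Y-linked covariate gave it 0.21, 0.12 and 0.16. The probe set with the highest linear mean, also added later, gave Marco 2.52, 0.89 and 1.70. The higher and lower counts of the uptake, breakdown, import, sensing, oxidant response and macrophage identity lists for the averaged knockout effect were the same with quantile normalization and with no scaling. The averaged value of Hfe stayed between -1.71 and -1.0 (adjusted p 0.158 to 0.775), and that of Slc11a1 between 0.64 and 1.80 (adjusted p 0.186 to 1).

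Over all genes, the knockout effect in spleen gave 1 call with a trended robust prior. The averaged effect gave 2 with the floor at the 40th percentile, 6 with the trended prior, and 0 to 2 with 1 array left out (2 without knockout spleen array B). The averaged tissue difference gave 1 each with quantile normalization, with no scaling, with no filter and with the mean of probe sets, 3 with the floor at the 40th percentile and 48 with the trended prior. The tissue difference within wild-type gave 3 with no floor, 2 with no filter and 10 with the trended prior. It gave 0 with the floor at the 40th percentile, the stricter filter, all probe sets, the Y-linked covariate, both knockout arrays A left out and the letter blocked within genotype, and 0 to 1 with 1 array left out. The labels do not say that a letter marks a shared animal or batch. Correlations of the deviations of same-lettered arrays were positive in all 6 pairs of groups, from 0.055 to 0.306, and 3 of them were over 0.1, so pairing across the 4 groups was not shown. Within each genotype, spleen and lymph node arrays of a letter had like Xist and Eif2s3y signals, which is a hint from the data that they may be paired; with the letter blocked within genotype, a setting added later, Slc40a1 was 2.82 between tissues (adjusted p = 0.245) and no member passed. With the letter as a replicate block this tissue difference gave 0 calls, and no other count of calls moved.

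Signal over background and 2 arrays a group limit these values. On 1449498_at of Marco and 1448566_at of Slc40a1, 4 arrays each were at the floor; the spleen minus lymph node value of the latter is a bound on its group means, and no knockout difference in lymph node can be had from it. A value missing the threshold does not show that the groups act alike.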
